A study of Mus musculus with 12 samples.

Results

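The distal stump is the part of a cut nerve that lies beyond the injury and has lost its link to the cell bodies. Its RNA was compared here between mice in which Schwann cells had lost Nf1 and mice that kept it, at day 14 after injury of the sciatic nerve. The comparison is between 6 of the 12 libraries of the series, chosen by their labels alone. They are 3 from Nf1 KO distal stumps and 3 from CTL distal stumps. The other 6 libraries come from the nerve bridge of the same genotypes. All 12 were fitted in 1 model, so the gene filter and the spread behind the p-values also draw on the bridge libraries. Nf1 KO mice carried P0-CreERT2:YFPfl/fl:Nf1fl/fl, so that tamoxifen removes both floxed Nf1 alleles from myelinating Schwann cells, the cells in which the P0 promoter drives the recombinase. CTL mice carried P0-CreERT2:YFPfl/fl:Nf1+/+. Both groups therefore had the inducible recombinase and the YFP reporter. By this design the floxed alleles of other cells of the Nf1 KO stumps, such as fibroblasts, macrophages and vessels, are not targeted, and recombination was not measured by cell type. The labels state tamoxifen for the Nf1 KO mice only and give no strain, age or sex. Each sample was a pool of 6 nerve fragments of 0.5 mm taken from multiple mice, so each replicate is a pool and differences between single animals are not seen. The labels do not say whether the pools were fully separate sets of animals, and the p-values measure the spread between these pools.

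Neurofibromin, the product of Nf1, is a GTPase-activating protein that turns active RAS back to its inactive form, and cells without it tend to keep RAS and the kinases RAF, MEK and ERK active for longer. After a nerve is cut, Schwann cells of the distal stump shed their myelin and become repair cells that secrete growth factors and guide new axons. Macrophages clear the debris, and once axons have grown back the Schwann cells return to making myelin. Loss of Nf1 in this lineage is the founding event of neurofibroma, a benign nerve tumour of Schwann cells, fibroblasts, macrophages and collagen.

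Library totals were 38981819, 36027933 and 29597833 estimated counts in the Nf1 KO stumps and 32803800, 28852593 and 35653461 in the CTL stumps. Of 30452 genes listed, 19189 were tested, and they held 99.96% of the counts. Levels are given as CPM, the count of a gene as a part of the library's total after scaling by TMM factors, which bring the bulk of genes in all libraries to a common level. Nf1 KO distal stump 1 stood somewhat apart. The non-coding gene Gm15662 took 24.5% of its counts (0.86% to 9.00% in the other 5 distal libraries), and its root-mean-square log2 distances to the other Nf1 KO stumps were 0.901 and 0.908, against 0.757 between those and 0.782 to 0.813 among the CTL stumps. Nf1 KO distal stump 1 lay about as near to the Nf1 KO bridges (0.902, 0.899 and 0.876) as to its own group. CTL distal stump 3 lay at 0.976, 0.831 and 0.82 from the CTL bridges. The part of bridge-like tissue in the results below was not tested. Nf1 KO distal stump 1 also held the most skeletal muscle RNA: the 20 muscle genes summed to 3849.6, 36.3 and 140.4 CPM in the Nf1 KO stumps, against 43.3, 345 and 459 CPM in the CTL stumps. Y-linked genes, which depend on how many males a pool held, summed to 106, 39.8 and 71.1 CPM in the Nf1 KO stumps, against 197, 116 and 120.2 CPM in the CTL stumps, so every Nf1 KO stump was below every CTL stump. The part of the sex of the animals in the results below was not tested, but all counts were repeated with the Y-linked level as a covariate and without each library.

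Nf1 was lower in the Nf1 KO stumps and was not lost from the tissue as a whole. Nf1 (ENSMUSG00000020716, GRCm38 chromosome 11, 79339693 to 79581612) had 42.5, 43.1 and 42.3 CPM in the Nf1 KO stumps, against 69.7, 57.02 and 67.3 CPM in the CTL stumps. The 2 groups did not overlap. The mean level was 42.6 ± 0.437 CPM in the Nf1 KO stumps and 64.7 ± 6.74 CPM in the CTL stumps (SD, n = 3 each), and Nf1 fell (log2 fold change -0.601, SE 0.10, adjusted p = 0.0056). For log2 CPM of these libraries, the exact permutation test (two-sided) gave p = 0.1, the smallest p that 3 against 3 libraries can give. Of the other 9 RAS GTPase-activating proteins measured, Rasal2 fell (107, 112 and 116 CPM in the Nf1 KO stumps, against 167, 153 and 159 CPM in the CTL stumps, log2 fold change -0.52, SE 0.11, adjusted p = 0.0143), but its adjusted p was 0.0505 without CTL distal stump 1 and 0.0510 without Nf1 KO distal stump 2. Rasa1, the founding member of the family, had 104, 120.04 and 106 CPM in the Nf1 KO stumps, against 116, 107 and 119 CPM in the CTL stumps.

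In all, 1562 of the 19189 genes tested were called at an adjusted p under 0.05, which is 8.14%. Of these, 854 rose (4.45% of the genes tested) and 708 fell (3.69%), and 251 changed at least 2-fold, 141 upward and 110 downward. The median log2 fold change over all tested genes was -0.00138. These values are from the fit of all 12 libraries. When only the 6 distal libraries were fitted, 889 genes were called, 793 of them among the 1562. The libraries of the 2 groups did not overlap for 1560 of the 1562. Such separation goes largely with the call itself and was required of the largest rises and falls named below. It describes the values and is no separate support for a gene. The count fell when single libraries were left out: it was 1302 without Nf1 KO distal stump 1 (764 higher, 3.88% of the genes then tested, and 538 lower, 2.73%), 880 without Nf1 KO distal stump 2, 913 without Nf1 KO distal stump 3, 957 without CTL distal stump 1 and 900 without CTL distal stump 3. A core of 543 genes, 313 that rose and 230 that fell, kept its call in 16 other analyses, which changed the scale factors, the filter, the test or the samples, left out each distal library in turn, or added the Y-linked level or the replicate number to the fit. The genes described below are of this core unless a lost call is stated. List counts below are to be read beside the 4.45% rising and 3.69% falling over all tested genes. Counts near those shares are not results about the list. In whole tissue, fewer cells of a type and less RNA per cell cannot be told apart.

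**Figure D1:**
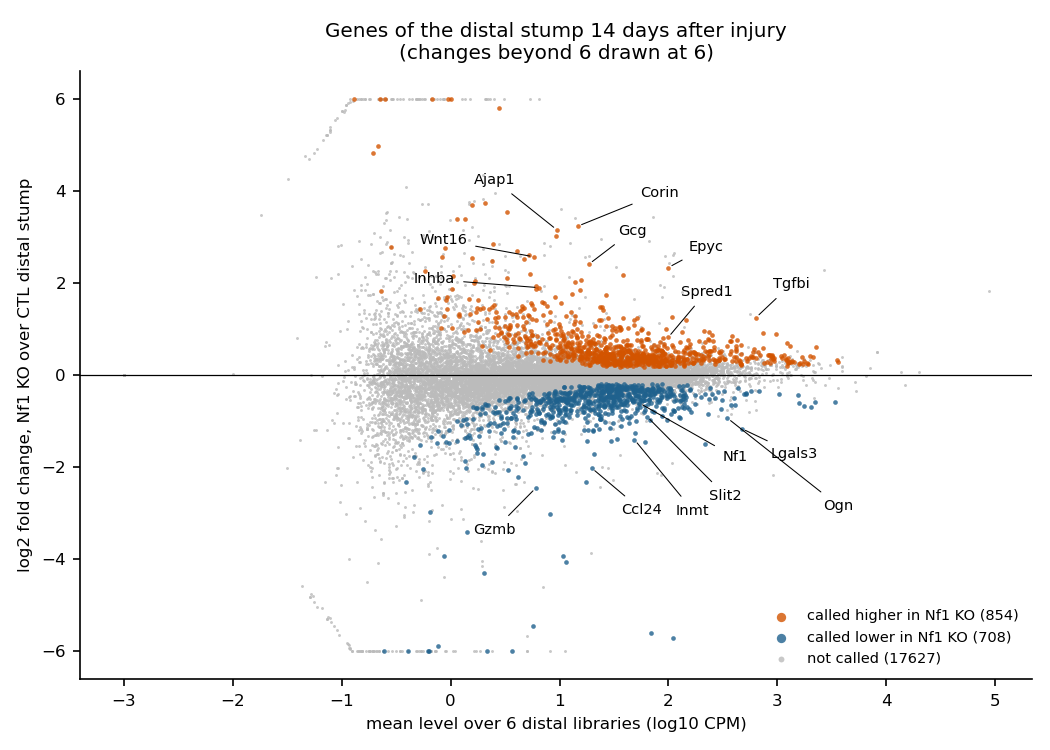
Log2 fold change of Nf1 KO over CTL distal stumps (vertical axis) against mean level in the 6 distal libraries (horizontal axis, log10 CPM), 1 point per tested gene, with changes beyond 6 drawn at 6. Orange points are the 854 genes that rose, blue points the 708 that fell and grey points the rest, and the called genes lie on both sides of a cloud centred near 0.

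The largest rises included genes of membrane, secreted and intracellular proteins. Corin (ENSMUSG00000005220, chromosome 5, 72300025 to 72504473), a membrane protease that cuts the precursor of atrial natriuretic peptide, had 25.9, 25.2 and 28.6 CPM in the Nf1 KO stumps, against 2.58, 2.69 and 3.16 CPM in the CTL stumps (log2 fold change 3.24, SE 0.17, adjusted p = 8.78e-06). Prkg2, a kinase switched on by cGMP, had 15.3, 16.3 and 17.9 CPM in the Nf1 KO stumps, against 2.16, 1.96 and 1.95 CPM in the CTL stumps (log2 fold change 3.03, SE 0.14, adjusted p = 7.03e-06). Both groups were tight, and the lowest Nf1 KO library was several times the highest CTL library for each gene. Ajap1, a protein that associates with adherens junctions, had 13.7, 17.8 and 19.5 CPM in the Nf1 KO stumps, against 1.87, 2.46 and 1.41 CPM in the CTL stumps (log2 fold change 3.16, SE 0.32, adjusted p = 0.000458). Wnt16, a secreted WNT ligand, had 8.41, 11.6 and 9.97 CPM in the Nf1 KO stumps, against 1.03, 1.96 and 2.03 CPM in the CTL stumps (log2 fold change 2.57, SE 0.27, adjusted p = 0.000539). Every Nf1 KO library again stood above every CTL library. Fhdc1, a formin that acts on actin and microtubules, rose by 2.69 on the log2 scale, Cst6, an inhibitor of cysteine proteases, by 1.88, and Ppp4r4, a regulatory subunit of protein phosphatase 4, by 1.71.

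Other leading rises were of genes better known from other tissues. Gcg (chromosome 2, 62474530 to 62483650), which encodes proglucagon, the precursor of glucagon and of the gut hormone GLP-1, had 28.1, 32.97 and 32.98 CPM in the Nf1 KO stumps, against 5.13, 6.17 and 6.35 CPM in the CTL stumps (log2 fold change 2.41, SE 0.18, adjusted p = 7.56e-05). The GLP-1 receptor gene Glp1r, chosen after its values were seen, was low and had 3.13, 2.94 and 5.62 CPM in the Nf1 KO stumps, against 0.161, 0.498 and 0.206 CPM in the CTL stumps (log2 fold change 3.75, SE 0.57, adjusted p = 0.00372). Both genes were higher in all 3 Nf1 KO stumps than in any CTL stump. Epyc, a small proteoglycan of growth-plate cartilage, had 136, 172 and 190.3 CPM in the Nf1 KO stumps, against 33.8, 35.2 and 29.6 CPM in the CTL stumps (log2 fold change 2.34, SE 0.19, adjusted p = 0.000127). Fabp7, a fatty acid binding protein of early Schwann cells and other glia, had 10.5, 8.11 and 8.06 CPM in the Nf1 KO stumps, against 1.096, 2.75 and 1.98 CPM in the CTL stumps (log2 fold change 2.19, SE 0.31, adjusted p = 0.00241). Fabp7 was the 1 gene of 16 Schwann lineage markers that rose. Cd72, a receptor of B cells that some myeloid cells also carry, had 50.1, 89.1 and 50.2 CPM in the Nf1 KO stumps, against 15.02, 16.6 and 10.2 CPM in the CTL stumps, with Nf1 KO distal stump 2 highest (log2 fold change 2.19, SE 0.29, adjusted p = 0.00189).

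Among the rises were 3 neighbouring Nlrp1 genes on chromosome 11, members of a family of inflammasome sensors. Nlrp1a rose by 2.16, Nlrp1b by 1.19 and the pseudogene Nlrp1c-ps by 2.601 on the log2 scale (adjusted p = 0.0056, 0.000838 and 0.0141). The 3 are near copies of each other, so reads may have been shared between them, and their counts are not independent. Nlrp1a and Nlrp1b were named after their values were seen. They lie 8.34 and 8.27 Mb from Nf1, on the chromosome of the floxed allele, and the part of sequence linked to that allele was not tested. On chromosome 11 9.97% of the tested genes within 10 Mb of Nf1 were called (38 of 381), against 6.12% at 10 to 20 Mb (18 of 294) and 8.11% farther away (70 of 863), and over the numbered chromosomes and X the share ran from 6.13% to 11.3%. Ifi202b, an interferon-inducible gene with close relatives that may share its reads, rose by 2.03 (adjusted p = 0.00706), and Wfdc18, a secreted whey acidic protein family member, by 2.06 (adjusted p = 0.000133). Wfdc18 lies on chromosome 11, 4.25 Mb from Nf1, and the part of sequence linked to the floxed allele was not tested for it either. Prl2c2, Stmn4 and F2rl1 are also among the 20 largest rises but lost their call in at least 1 of the 16 other analyses, as did 9 of the 20 largest falls, and none of these is described as leading.

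The largest falls that kept their call included an eosinophil chemokine, a macrophage protein and a secreted WNT antagonist. Ccl24, which attracts eosinophils through CCR3, had 8.44, 7.28 and 7.705 CPM in the Nf1 KO stumps, against 18.02, 53.6 and 23.1 CPM in the CTL stumps (log2 fold change -2.02, SE 0.35, adjusted p = 0.00733). The CTL stumps were spread, with CTL distal stump 2 highest, and all 3 lay above the Nf1 KO stumps. Wfdc17, a secreted protein of activated macrophages, had 113, 108 and 121 CPM in the Nf1 KO stumps, against 431, 284 and 243 CPM in the CTL stumps (log2 fold change -1.49, SE 0.25, adjusted p = 0.00575). Wfdc17 lies 4.24 Mb from Nf1 on chromosome 11, close to Wfdc18, which rose. The part of sequence linked to the floxed allele in its fall was not tested. Dok4, an adaptor protein of receptor tyrosine kinases, had 14.7, 15.7 and 18.1 CPM in the Nf1 KO stumps, against 47.5, 48.7 and 34.05 CPM in the CTL stumps (log2 fold change -1.42, SE 0.20, adjusted p = 0.00272). In none of these did the groups overlap. Inmt, an enzyme that methylates indoles and a marker of some fibroblasts, had 30.8, 23.8 and 25.7 CPM in the Nf1 KO stumps, against 77.7, 56.5 and 77.6 CPM in the CTL stumps (log2 fold change -1.400, SE 0.14, adjusted p = 0.000377). Frzb, a secreted protein that binds WNT ligands, had 25.6, 30.1 and 32.3 CPM in the Nf1 KO stumps, against 65.2, 77.8 and 66.2 CPM in the CTL stumps (log2 fold change -1.25, SE 0.13, adjusted p = 0.000539). Zfp185, a LIM-domain protein of the actin skeleton, Chdh, the mitochondrial enzyme that oxidises choline, and Clca3a2, of the chloride channel accessory family, fell as well, with log2 fold changes of -1.56, -1.57 and -1.72. Clca3a2 has near copies that may share its reads.

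**Figure D2:**
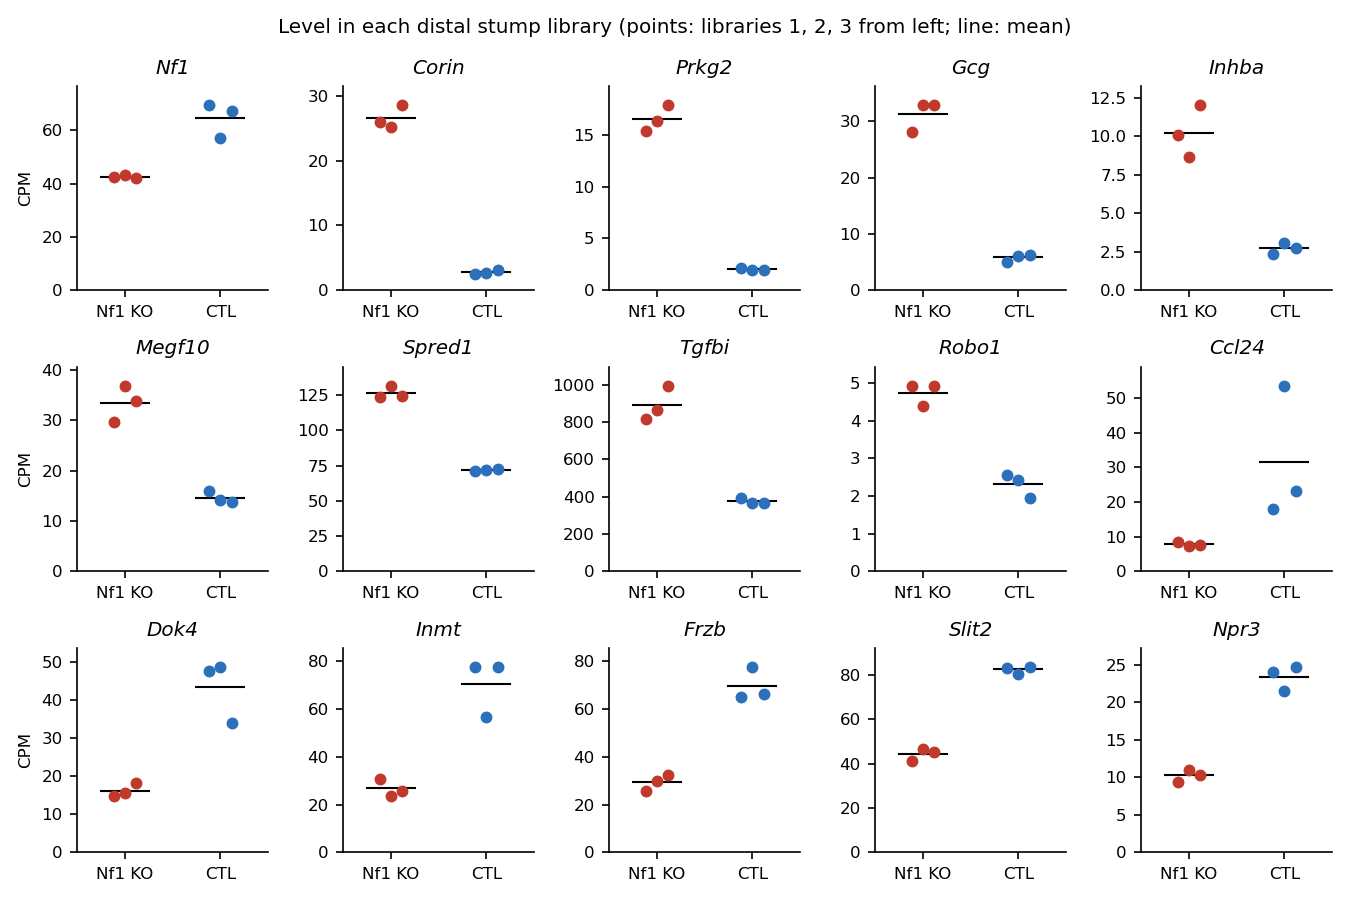
Level in CPM (vertical axes, each from 0) of 15 genes in each distal library, with Nf1 KO stumps on the left and CTL stumps on the right of every panel and a bar at each group mean. In each panel the 3 Nf1 KO points lie wholly above or wholly below the 3 CTL points, which was required of the genes named as largest rises and falls.

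Genes that RAS and ERK are known to switch on as brakes rose in part. Of 19 measured feedback inhibitors of the pathway, 6 rose and none fell (median log2 fold change 0.30), and Spred1, Spry4, Dusp6 and Sh2b3 kept their call throughout. Spred1, which brings neurofibromin to the membrane and to RAS, had 124, 132 and 124 CPM in the Nf1 KO stumps, against 71.1, 71.7 and 72.6 CPM in the CTL stumps (log2 fold change 0.82, SE 0.05, adjusted p = 2.64e-05). Spry4, a Sprouty inhibitor of receptor tyrosine kinase signalling, had 9.89, 10.7 and 10.5 CPM in the Nf1 KO stumps, against 5.51, 6.01 and 4.94 CPM in the CTL stumps (log2 fold change 0.92, SE 0.10, adjusted p = 0.000539). Dusp6, a phosphatase that removes phosphate from ERK, had 108, 123 and 119 CPM in the Nf1 KO stumps, against 85.3, 76.999 and 71.4 CPM in the CTL stumps (log2 fold change 0.58, SE 0.07, adjusted p = 0.00115). For each of the 3 the Nf1 KO libraries lay above the CTL libraries with a gap wider than the spread within either group. Sh2b3, an adaptor that dampens cytokine and growth factor receptors, rose by 0.37 on the log2 scale. Others of the same families gave no call: Spry1 had 28.1, 27.3 and 30.2 CPM in the Nf1 KO stumps, against 26.6, 27.8 and 25.5 CPM in the CTL stumps, and Dusp4 had 13.5, 16.1 and 16.7 CPM, against 13.9, 14.3 and 13.6 CPM.

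Transcription factors downstream of ERK followed the same division. Of 14 measured, 5 rose and none fell (median 0.44), with 3 calls left without CTL distal stump 1 and 3 without CTL distal stump 3. The PEA3 group of ETS factors accounted for those that kept their call. Etv1 had 30.9, 31.6 and 32.1 CPM in the Nf1 KO stumps, against 17.5, 19.4 and 20.5 CPM in the CTL stumps (log2 fold change 0.72, SE 0.09, adjusted p = 0.00157), Etv4 rose by 0.87 (adjusted p = 0.0056) and Etv5 by 0.43 (adjusted p = 0.00612). Egr1, an immediate early gene, had 19.5, 10.3 and 10.8 CPM in the Nf1 KO stumps, against 6.16, 6.47 and 6.12 CPM in the CTL stumps (log2 fold change 1.11, SE 0.23, adjusted p = 0.0169), with Nf1 KO distal stump 1 highest, and its adjusted p was 0.0568 without CTL distal stump 1, 0.0612 without CTL distal stump 3 and 0.0585 when only the distal libraries were fitted. Fosl1, another classical ERK target, had 3.97, 3.87 and 4.79 CPM in the Nf1 KO stumps, against 4.32, 3.82 and 3.45 CPM in the CTL stumps, and was not called. In the RAS, RAF, MEK and ERK genes themselves, 2 of 21 rose and 4 fell, and none of the 6 kept its call throughout: leaving out any 1 of the 6 libraries left 0 or 1 that rose and 1 or 2 that fell, and with the Y-linked covariate 0 rose and 3 fell.

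Upstream of RAS, the EGF receptor and 1 of its ligands rose. Egfr had 80.8, 83.7 and 91.1 CPM in the Nf1 KO stumps, against 52.5, 57.9 and 61.8 CPM in the CTL stumps (log2 fold change 0.57, SE 0.09, adjusted p = 0.0039). Hbegf, heparin-binding EGF, a ligand of that receptor, had 46.9, 63.4 and 59.4 CPM in the Nf1 KO stumps, against 25.4, 28.4 and 30.1 CPM in the CTL stumps (log2 fold change 1.01, SE 0.14, adjusted p = 0.00208). The lowest Nf1 KO library exceeded the highest CTL library for both. Of 13 measured genes of the family, these 2 rose and Tgfa fell, and the call of Tgfa was lost without Nf1 KO distal stump 1 or 2, without CTL distal stump 1, 2 or 3 and with the Y-linked covariate.

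Promoters were taken of Spred1, Dusp6 and Egfr, as genes of the pathway that rose together. Corin was added as the first of the 20 largest rises that the naming rule gave. These promoters are shown as the 250 bases before the RefSeq start, on GRCm38.p6 and on the gene's strand. They were searched on both strands for TGANTCA (AP-1), CCGGAAG or CTTCCGG (ETS) and GGAATG or CATTCC (TEAD) as motifs of 3 transcription factor families, and matches are in capitals.
Spred1, chr2:117120821-117121070, plus strand: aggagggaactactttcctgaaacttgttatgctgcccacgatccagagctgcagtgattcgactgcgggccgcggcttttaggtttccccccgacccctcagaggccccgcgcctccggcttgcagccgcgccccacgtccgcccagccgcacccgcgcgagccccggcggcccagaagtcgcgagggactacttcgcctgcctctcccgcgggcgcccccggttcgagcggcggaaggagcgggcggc
Dusp6, chr10:99262981-99263230, plus strand: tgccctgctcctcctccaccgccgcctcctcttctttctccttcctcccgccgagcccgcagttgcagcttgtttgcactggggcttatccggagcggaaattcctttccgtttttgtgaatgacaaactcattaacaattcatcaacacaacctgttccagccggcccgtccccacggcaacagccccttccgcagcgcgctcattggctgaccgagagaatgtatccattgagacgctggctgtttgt
Egfr, chr11:16751953-16752202, plus strand: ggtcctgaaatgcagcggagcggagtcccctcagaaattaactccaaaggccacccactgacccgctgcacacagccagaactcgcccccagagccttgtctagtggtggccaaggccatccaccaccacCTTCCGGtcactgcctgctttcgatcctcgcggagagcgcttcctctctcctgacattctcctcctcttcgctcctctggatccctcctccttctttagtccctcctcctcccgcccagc
Corin, chr5:72504541-72504790, minus strand: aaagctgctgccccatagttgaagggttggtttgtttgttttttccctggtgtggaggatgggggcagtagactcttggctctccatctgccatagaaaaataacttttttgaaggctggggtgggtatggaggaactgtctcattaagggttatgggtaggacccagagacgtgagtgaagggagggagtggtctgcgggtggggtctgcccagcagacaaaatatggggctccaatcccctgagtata
Egfr held 1 ETS match, 120 to 114 bases before the start, and none of the 3 motifs was found in the windows of Spred1, Dusp6 and Corin. Over the windows of 12517 tested genes with a RefSeq promoter, the AP-1 letters stood in 5.65% of the 619 of genes that rose and 6.93% of the 476 of genes that fell, against 5.01% of all. The ETS letters stood in 11.0% of the windows of genes that rose and 6.72% of those of genes that fell, against 11.8% of all, and the TEAD letters in 11.5% and 13.4%, against 11.1% of all. A match is a run of letters, not a shown binding site.

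Among genes of cGMP and natriuretic peptide signalling, RNA of a protease, a kinase and a phosphodiesterase rose and that of the clearance receptor fell. Beside the rises of Corin and Prkg2, Npr3, the receptor that removes natriuretic peptides without making cGMP, had 9.42, 10.99 and 10.3 CPM in the Nf1 KO stumps, against 24.1, 21.4 and 24.7 CPM in the CTL stumps (log2 fold change -1.19, SE 0.10, adjusted p = 0.00017). The groups were well apart. Of 15 measured genes of the pathway 3 rose and 2 fell. The third rise was that of Pde9a, a cGMP phosphodiesterase (log2 fold change 0.42, SE 0.08, adjusted p = 0.0112). Its call was lost with the Y-linked covariate (adjusted p = 0.0536), which left 2 rises. The count that fell was 1 without Nf1 KO distal stump 2 or 3, without CTL distal stump 2 or 3 and with the Y-linked covariate, where Pde3a lost its call. The receptors that make cGMP were not called: the log2 fold change was -0.42 for Npr1 (adjusted p = 0.0784) and -0.202 for Npr2 (adjusted p = 0.27).

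Myelin genes were lower in the Nf1 KO stumps. Of 24 measured, 12 fell and none rose, with a median log2 fold change of -0.57. Most of these calls were lost in some analyses without 1 library: the count that fell was 4 without Nf1 KO distal stump 1, 6 without Nf1 KO distal stump 2, 7 without Nf1 KO distal stump 3, 5 without CTL distal stump 2 and 4 without CTL distal stump 3. With the Y-linked covariate it was 14. The 24 genes summed to 7659.8, 10029 and 9823 CPM in the Nf1 KO stumps, against 12258, 13889 and 13823 CPM in the CTL stumps. Every Nf1 KO stump lay below every CTL stump, Nf1 KO distal stump 1 lowest.

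Of the 4 myelin genes that kept their call throughout, 3 serve membrane seals or myelin lipids. Cldn19, the claudin that seals Schwann cell membranes, had 98.8, 122 and 125 CPM in the Nf1 KO stumps, against 182, 193 and 199 CPM in the CTL stumps (log2 fold change -0.73, SE 0.13, adjusted p = 0.00866). Ugt8a, which makes the myelin lipid galactosylceramide, had 68.03, 103 and 93.1 CPM in the Nf1 KO stumps, against 153, 157 and 193 CPM in the CTL stumps (log2 fold change -0.93, SE 0.18, adjusted p = 0.0103). Fa2h, which hydroxylates the fatty acids of that lipid, had 13.2, 17.7 and 17.8 CPM in the Nf1 KO stumps, against 26.1, 30.6 and 32.3 CPM in the CTL stumps (log2 fold change -0.87, SE 0.17, adjusted p = 0.0119). The groups did not overlap for any of the 3. Ndrg1, whose loss causes a demyelinating neuropathy in humans, fell with a log2 fold change of -0.66.

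Genes of Schwann cell identity and of the repair state gave few calls. Sox10, the transcription factor that defines the lineage, had 95.9, 104 and 107 CPM in the Nf1 KO stumps, against 115, 104 and 89.6 CPM in the CTL stumps and was not called (adjusted p = 0.978). The 16 lineage markers, some of which are also myelin genes, summed to 4394, 5219 and 4998 CPM in the Nf1 KO stumps, against 6045, 6715 and 6630.02 CPM in the CTL stumps, and among them Fabp7, which rose, kept its call. This sum moved with the myelin genes, and the part of Schwann cell content in their fall was not tested. Of 20 genes of the repair state, 3 rose. Megf10, an engulfment receptor of glia, had 29.8, 36.9 and 33.95 CPM in the Nf1 KO stumps, against 16.1, 14.2 and 13.7 CPM in the CTL stumps (log2 fold change 1.197, SE 0.09, adjusted p = 7.33e-05). Ncam1, an adhesion molecule of immature and non-myelinating Schwann cells, had 72.4, 83.8 and 68.2 CPM in the Nf1 KO stumps, against 37.9, 33.8 and 41.1 CPM in the CTL stumps (log2 fold change 0.99, SE 0.10, adjusted p = 0.000486). For both, every Nf1 KO stump stood above every CTL stump. Cadm1, an adhesion molecule of axons and Schwann cells, rose by 0.51 on the log2 scale, with an adjusted p of 0.0503 when only the distal libraries were fitted. Shh fell (log2 fold change -1.02), a call lost without Nf1 KO distal stump 1 or 2, without CTL distal stump 1 or 2 and with the Y-linked covariate. Jun, the transcription factor that drives the repair state, had 95.9, 112 and 105 CPM in the Nf1 KO stumps, against 93.9, 93.9 and 79.6 CPM in the CTL stumps, and was not called.

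**Figure D3:**
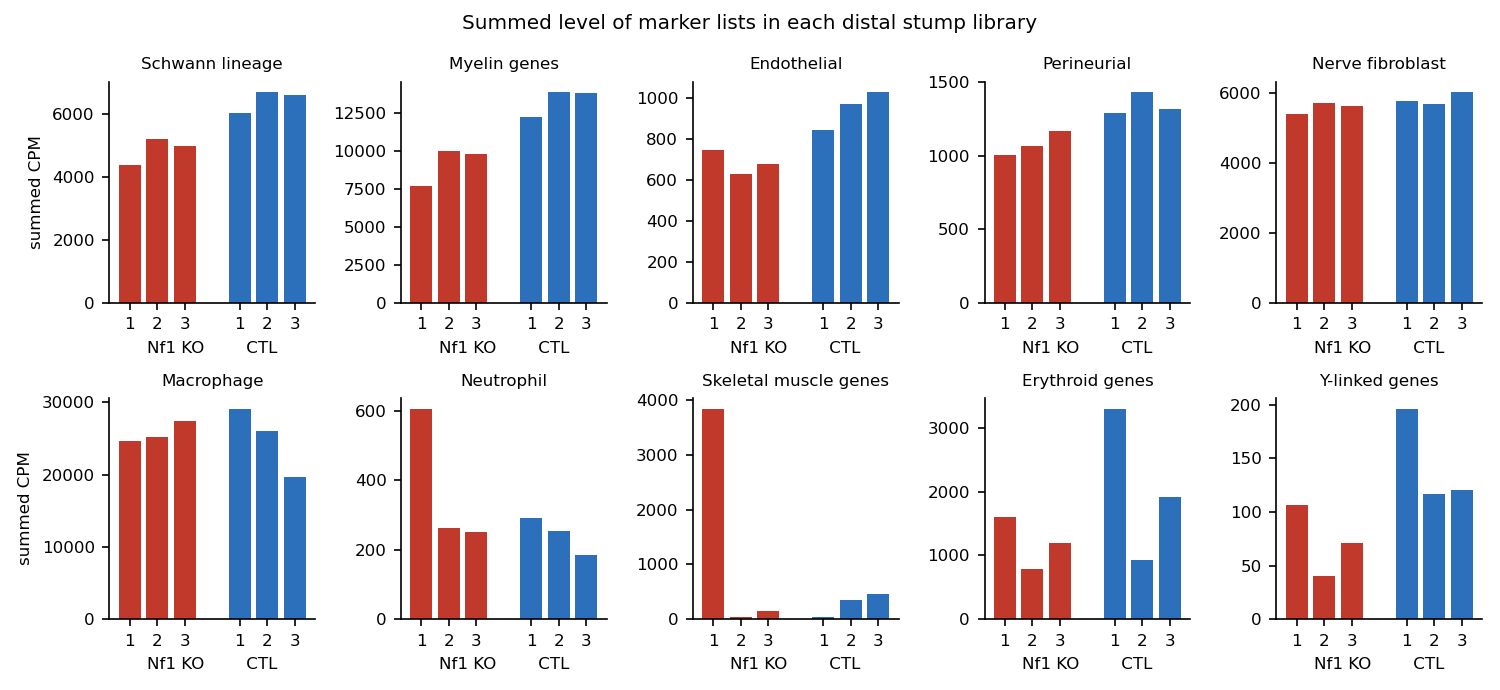
Summed CPM of the genes of 10 lists, of cell types, tissues and the Y chromosome, in each distal library (bars from 0, Nf1 KO stumps left of CTL stumps, 1 panel per list). Myelin, Schwann lineage, endothelial, perineurial and Y-linked sums were lower in every Nf1 KO stump than in any CTL stump. The muscle sum stood out in Nf1 KO distal stump 1.

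Most of the measured collagen genes outside basement membranes rose. Of 23 measured outside the basement membrane, 13 rose and none fell (median 0.50), and 9 to 13 rose when any 1 library was left out. Col1a1, the main chain of type I collagen, had 1753, 1428 and 1524 CPM in the Nf1 KO stumps, against 982, 987 and 1082 CPM in the CTL stumps (log2 fold change 0.63, SE 0.10, adjusted p = 0.0059). Col12a1, which decorates fibrils, had 74.6, 64.8 and 64.01 CPM in the Nf1 KO stumps, against 24.4, 27.9 and 36.7 CPM in the CTL stumps (log2 fold change 1.19, SE 0.13, adjusted p = 0.000644). Neither overlapped between the groups. Col11a1, a chain that sets the width of fibrils, had 74.4, 70.7 and 82.2 CPM in the Nf1 KO stumps, against 36.7, 35.9 and 40.8 CPM in the CTL stumps (log2 fold change 1.001, SE 0.07, adjusted p = 7.56e-05), and Col8a1, a network collagen of vessels and injured tissue, rose by 0.96 on the log2 scale. Col28a1, a collagen of peripheral nerve glia, had 253, 270.5 and 289 CPM in the Nf1 KO stumps, against 173, 148 and 169.6 CPM in the CTL stumps (log2 fold change 0.73, SE 0.08, adjusted p = 0.000539).

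Among genes of proteins that bind collagen or cells in the matrix, rises outnumbered falls. Of 25 matricellular proteins and proteoglycans 11 rose and 2 fell (median 0.40), with 7 rising without CTL distal stump 1 or with the Y-linked covariate and 1 falling without CTL distal stump 3 or Nf1 KO distal stump 3. Tgfbi, a secreted collagen and integrin ligand named for its induction by TGF-beta, had 819, 867 and 996 CPM in the Nf1 KO stumps, against 394, 367 and 366 CPM in the CTL stumps (log2 fold change 1.25, SE 0.08, adjusted p = 3.13e-05). Vcan, the large proteoglycan versican, had 102, 73.4 and 76.4 CPM in the Nf1 KO stumps, against 40.6, 38.5 and 54.95 CPM in the CTL stumps (log2 fold change 0.91, SE 0.15, adjusted p = 0.00563). Fn1, fibronectin, had 973, 753 and 926 CPM in the Nf1 KO stumps, against 569, 582 and 607 CPM in the CTL stumps (log2 fold change 0.59, SE 0.11, adjusted p = 0.0112). In each case the lowest Nf1 KO stump exceeded the highest CTL stump. Thbs2, an anti-angiogenic thrombospondin, rose by 0.58 and Bgn, biglycan, by 0.56 on the log2 scale. Ogn, the proteoglycan osteoglycin, went the other way with 228, 262 and 226 CPM in the Nf1 KO stumps, against 473, 412 and 480.2 CPM in the CTL stumps (log2 fold change -0.93, SE 0.08, adjusted p = 0.00017).

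Several genes of cartilage matrix, a group chosen after its values were seen, were among the rises. Of 20 measured, 7 rose and 1 fell. Besides Epyc and Col11a1, Mgp, an inhibitor of calcification, had 1009, 859.7 and 1003 CPM in the Nf1 KO stumps, against 524, 468 and 526 CPM in the CTL stumps (log2 fold change 0.92, SE 0.08, adjusted p = 0.000127). Col9a2, a chain of cartilage collagen IX, had 16.7, 14.3 and 17.9 CPM in the Nf1 KO stumps, against 6.74, 5.84 and 7.56 CPM in the CTL stumps (log2 fold change 1.28, SE 0.14, adjusted p = 0.000539). Itga10, the integrin of chondrocytes that binds collagen, had 8.41, 8.52 and 7.78 CPM in the Nf1 KO stumps, against 2.97, 2.62 and 2.75 CPM in the CTL stumps (log2 fold change 1.57, SE 0.12, adjusted p = 7.79e-05). All 3 were higher in every Nf1 KO stump than in any CTL stump. Sox9, the master factor of cartilage, was not higher: its level was 4.98, 3.96 and 4.61 CPM in the Nf1 KO stumps, against 7.09, 6.704 and 5.503 CPM in the CTL stumps. Its fall (adjusted p = 0.0466) lost its call without CTL distal stump 1 or 2 and without Nf1 KO distal stump 2 or 3, as with the Y-linked covariate, which left no fall in the group.

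Of 31 genes that cross-link or digest matrix, 10 rose and none fell (median 0.21), with 5 rising without Nf1 KO distal stump 2 or 3, without CTL distal stump 1 or with the Y-linked covariate. Serpine2, which inhibits thrombin, had 361, 426 and 472 CPM in the Nf1 KO stumps, against 267, 266 and 273 CPM in the CTL stumps (log2 fold change 0.64, SE 0.09, adjusted p = 0.00238). Mmp2, a gelatinase, had 529.9, 554 and 596 CPM in the Nf1 KO stumps, against 313, 351 and 405 CPM in the CTL stumps (log2 fold change 0.65, SE 0.09, adjusted p = 0.00299). The groups were separate for both. Mmp14, which activates Mmp2, rose by 0.48 and the lysyl oxidase Loxl3 by 0.48 on the log2 scale.

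In basement membranes the collagen IV chains rose while an integrin of nerve sheath cells fell. Of 26 measured genes 6 rose and 3 fell. Col4a1 and its neighbour Col4a2, which share a promoter region and form 1 protein, rose by 0.52 and 0.503 (adjusted p = 0.00639 and 0.00423). Itga1 and Itga2, the alpha chains of collagen-binding integrins, rose by 0.65 and 0.54 (adjusted p = 0.000309 and 0.00343). Itgb4, the beta chain of the laminin receptor of perineurial and Schwann cells, had 78.2, 81.5 and 85.6 CPM in the Nf1 KO stumps, against 148, 132 and 136 CPM in the CTL stumps (log2 fold change -0.76, SE 0.10, adjusted p = 0.00189). Every Nf1 KO stump was below every CTL stump.

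**Figure D4:**
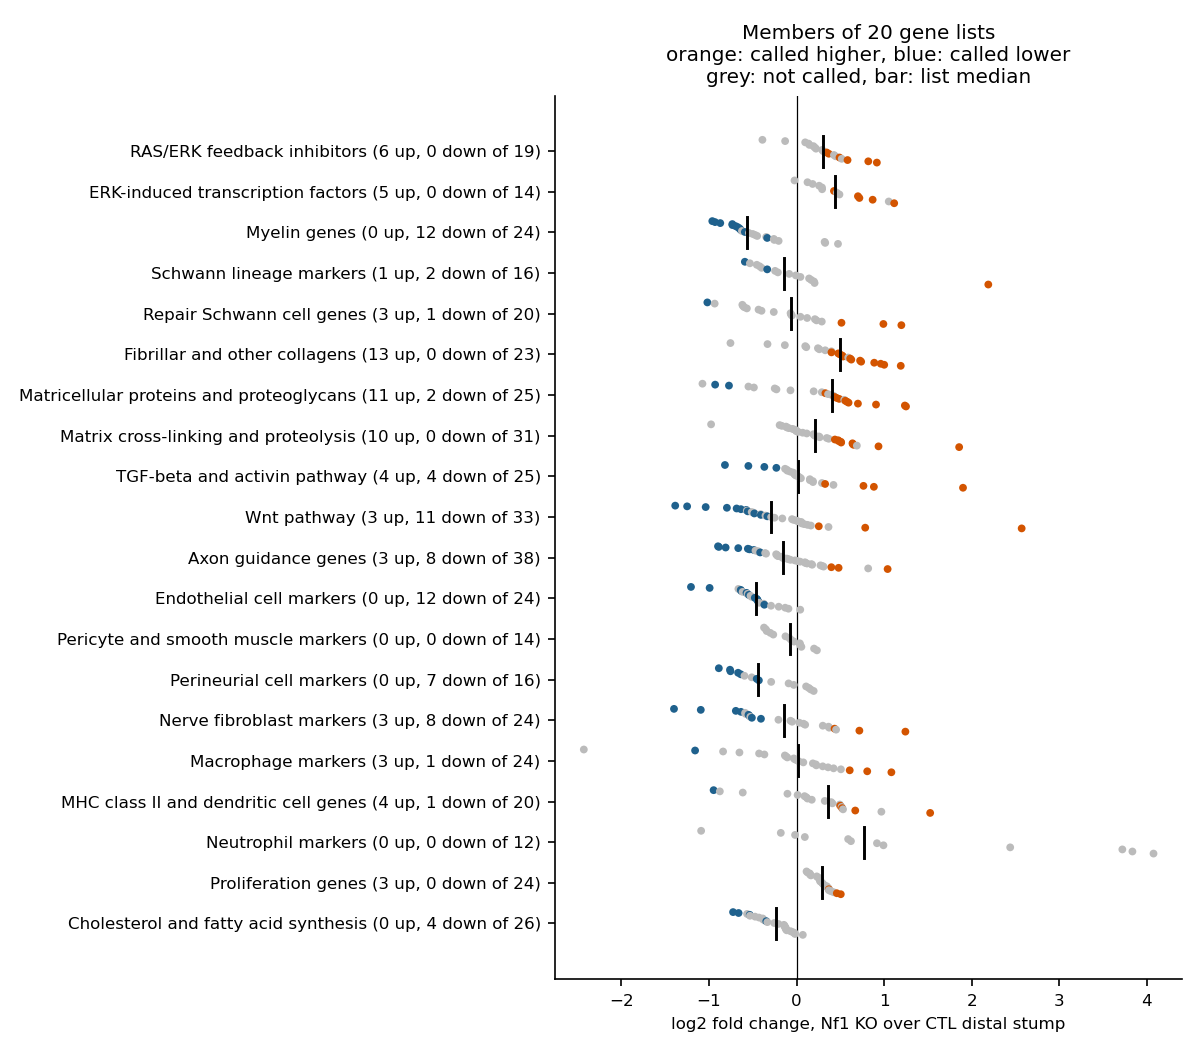
Log2 fold change of Nf1 KO over CTL distal stumps (horizontal axis) of the measured members of 20 gene lists (1 point per gene, coloured where called, with a bar at the list's median). Myelin, endothelial and perineurial medians lay below 0 and those of collagens, matricellular proteins and ERK-induced factors above 0, and the neutrophil markers were spread widely.

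In the TGF-beta and activin pathway a ligand rose and its inhibitor fell. Of 25 measured genes 4 rose and 4 fell, and these counts dropped to 2 and 2 in some of the analyses without 1 library (2 rising without any 1 of the CTL stumps or Nf1 KO distal stump 1 or 2, and 2 falling without CTL distal stump 2 or 3 or Nf1 KO distal stump 2 or 3) and with the Y-linked covariate. The 4 below kept their call throughout. Inhba, the subunit of activin A, had 10.1, 8.63 and 12.1 CPM in the Nf1 KO stumps, against 2.35, 3.09 and 2.78 CPM in the CTL stumps (log2 fold change 1.901, SE 0.18, adjusted p = 0.000309). Fst, follistatin, which binds and blocks activin, had 8.31, 10.1 and 8.93 CPM in the Nf1 KO stumps, against 14.96, 14.2 and 18.98 CPM in the CTL stumps (log2 fold change -0.82, SE 0.13, adjusted p = 0.00437). The groups were separate for both. Skil, a repressor of SMAD proteins that TGF-beta itself induces, had 53.6, 53.5 and 49.9 CPM in the Nf1 KO stumps, against 29.9, 31.9 and 30.6 CPM in the CTL stumps (log2 fold change 0.76, SE 0.05, adjusted p = 3.26e-05). Tgfbr3, the co-receptor betaglycan, fell with a log2 fold change of -0.55. Among 28 BMP pathway genes 3 rose and 2 fell, and Acvr1, a type I receptor, and Bambi, a decoy receptor, kept their rises of 0.69 and 0.77 (adjusted p = 0.00188 and 0.0111). The count that fell was 1 without CTL distal stump 2 or Nf1 KO distal stump 3, and 0 without Nf1 KO distal stump 2, without CTL distal stump 3 and with the Y-linked covariate.

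Among WNT genes, falls outnumbered rises. Of 33 measured, 11 fell and 3 rose (median -0.29). The count that fell was 6, 3 and 5 without Nf1 KO distal stump 1, 2 and 3, and 7, 3 and 4 without CTL distal stump 1, 2 and 3. With the Y-linked covariate 4 fell and 2 rose. Frzb, described above, and Nkd1 kept their falls, and Wnt16 and Nkd2 kept their rises. Nkd1 and Nkd2 are related inhibitors inside the cell. Nkd1 had 13.8, 15.2 and 17.03 CPM in the Nf1 KO stumps, against 24.1, 23.6 and 20.9 CPM in the CTL stumps (log2 fold change -0.57, SE 0.10, adjusted p = 0.00705), whereas Nkd2 had 33.7, 32.3 and 33.6 CPM in the Nf1 KO stumps, against 17.8, 18.95 and 21.1 CPM in the CTL stumps (log2 fold change 0.78, SE 0.06, adjusted p = 0.000119), so the 2 relatives moved in opposite directions. Sfrp2, a secreted relative of Frzb, had 23.6, 19.5 and 13.1 CPM in the Nf1 KO stumps, against 50.7, 54.99 and 41.2 CPM in the CTL stumps (log2 fold change -1.39, SE 0.27, adjusted p = 0.0127), a call that was lost with the Y-linked covariate (adjusted p = 0.055).

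Of 38 axon guidance genes 8 fell and 3 rose (median -0.16). The count that fell was 5 without CTL distal stump 2 or Nf1 KO distal stump 1 and 4 without CTL distal stump 3 or Nf1 KO distal stump 2, and 1 rose without Nf1 KO distal stump 2 or 3, without CTL distal stump 3 or with the Y-linked covariate. Slit2, a repellent of growing axons and migrating cells, had 41.2, 46.5 and 45.2 CPM in the Nf1 KO stumps, against 83.3, 80.5 and 83.9 CPM in the CTL stumps (log2 fold change -0.897, SE 0.06, adjusted p = 3.67e-05). Its receptor Robo1 had 4.91, 4.396 and 4.93 CPM in the Nf1 KO stumps, against 2.55, 2.42 and 1.95 CPM in the CTL stumps (log2 fold change 1.04, SE 0.13, adjusted p = 0.00134). The ligand was thus lower and the receptor higher in all 3 Nf1 KO stumps. Ntn4, a netrin bound to basement membranes, had 22.5, 25.5 and 28.05 CPM in the Nf1 KO stumps, against 46.2, 44.1 and 50.5 CPM in the CTL stumps (log2 fold change -0.89, SE 0.12, adjusted p = 0.00194). Nrp2, a receptor of semaphorins and of lymphatic growth factors, and Sema6d, a membrane semaphorin, fell with log2 fold changes of -0.42 and -0.56.

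Growth factors of the nerve gave 6 rises and 4 falls among 30 measured, with 1 fall without Nf1 KO distal stump 2, and 3 rises and 1 fall with the Y-linked covariate. Igf1, insulin-like growth factor 1, had 176, 162 and 154 CPM in the Nf1 KO stumps, against 110.1, 119 and 124 CPM in the CTL stumps (log2 fold change 0.48, SE 0.08, adjusted p = 0.00549). Igfbp7, a secreted binding protein, rose by 0.42 on the log2 scale. Of 20 neurotrophic factors and receptors, the single call was a rise of Ntrk2 (0.26), and the list had no call without Nf1 KO distal stump 2, without CTL distal stump 1 or with the Y-linked covariate and 2 rises without Nf1 KO distal stump 1. Gdnf, which supports motor neurons, had 3.398, 3.32 and 3.96 CPM in the Nf1 KO stumps, against 5.67, 5.97 and 4.53 CPM in the CTL stumps, and Ngfr, the low-affinity neurotrophin receptor of repair Schwann cells, had 153, 192 and 209 CPM, against 302, 284 and 260.3 CPM. Neither was called (adjusted p = 0.128 and 0.0702).

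Of 24 measured endothelial markers 12 fell and none rose (median -0.47), and 4 kept their call throughout. The count that fell was 4 without Nf1 KO distal stump 2, 7 without Nf1 KO distal stump 3, 5 without CTL distal stump 2, 4 without CTL distal stump 3 and 5 with the Y-linked covariate. Cldn5, the claudin of the blood-nerve barrier, had 31.1, 33.5 and 36.002 CPM in the Nf1 KO stumps, against 54.6, 78.6 and 67.2 CPM in the CTL stumps (log2 fold change -0.99, SE 0.14, adjusted p = 0.00225). Slco1a4, an organic anion transporter of barrier vessels, had 5.85, 5.495 and 6.3004 CPM in the Nf1 KO stumps, against 14.3, 13.3 and 13.1 CPM in the CTL stumps (log2 fold change -1.21, SE 0.13, adjusted p = 0.000604). Both were lower in every Nf1 KO stump. The efflux pump gene Abcb1a and the junction gene Esam fell with log2 fold changes of -0.64 and -0.55. The 24 markers summed to 749, 631 and 678 CPM in the Nf1 KO stumps, against 842, 969 and 1029.96 CPM in the CTL stumps. With all libraries, none of 8 markers of lymphatic vessels and none of 14 markers of pericytes and smooth muscle was called by edgeR, DESeq2 or limma-voom, with 1 and 2 at an unadjusted p under 0.05 by edgeR. Without Nf1 KO distal stump 1, edgeR called 2 of the 14 lower and their median log2 fold change was -0.36, against -0.07 with it.

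Perineurial cells form the sheath around nerve bundles. Of 16 measured markers 7 fell and none rose (median -0.44), with 4 falling without Nf1 KO distal stump 2. Itgb4 and Ntn4, given above, are among them. Lypd2, a surface protein, had 39.4, 48.6 and 53.2 CPM in the Nf1 KO stumps, against 72.1, 80.6 and 71.7 CPM in the CTL stumps (log2 fold change -0.67, SE 0.12, adjusted p = 0.00774). Kcnj13, an inward-rectifier potassium channel, had 9.49, 9.397 and 8.89 CPM in the Nf1 KO stumps, against 16.2, 14.7 and 15.97 CPM in the CTL stumps (log2 fold change -0.76, SE 0.12, adjusted p = 0.00423). The sums of the 16 markers were 1003, 1062 and 1166 CPM in the Nf1 KO stumps, against 1292, 1432 and 1313 CPM in the CTL stumps. Fibroblast markers were divided, with 3 of 24 rising and 8 falling (2 falling without CTL distal stump 2 or Nf1 KO distal stump 2, 3 without CTL distal stump 3, 4 without Nf1 KO distal stump 3 and 5 with the Y-linked covariate). Meox1, a transcription factor of activated fibroblasts, had 37.9, 38.03 and 41.8 CPM in the Nf1 KO stumps, against 15.8, 19.3 and 14.7 CPM in the CTL stumps (log2 fold change 1.24, SE 0.11, adjusted p = 0.000142), and Clec3b, tetranectin, had 29.4, 20.9 and 20.5 CPM in the Nf1 KO stumps, against 45.2, 47.99 and 57.8 CPM in the CTL stumps (log2 fold change -1.09, SE 0.16, adjusted p = 0.00343). Summed over the 24 markers the groups were close, with 5388, 5694 and 5630.1 CPM in the Nf1 KO stumps, against 5752, 5686 and 6020.2 CPM in the CTL stumps.

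In the immune compartment the summed macrophage markers overlapped between the groups, at 24598, 25244 and 27394 CPM in the Nf1 KO stumps, against 29133, 26039.6 and 19618 CPM in the CTL stumps. Of 24 measured, 3 rose and 1 fell, and 2 fell without CTL distal stump 3. Cx3cr1, the fractalkine receptor of resident and patrolling macrophages, had 59.5, 66.7 and 68.3 CPM in the Nf1 KO stumps, against 36.2, 31.4 and 24.4 CPM in the CTL stumps (log2 fold change 1.08, SE 0.16, adjusted p = 0.00305). Aif1, which encodes IBA1, had 126, 122 and 94.5 CPM in the Nf1 KO stumps, against 74.7, 61.9 and 58.9 CPM in the CTL stumps (log2 fold change 0.81, SE 0.15, adjusted p = 0.00837). Lgals3, galectin-3 of debris-laden macrophages, had 245, 293 and 332 CPM in the Nf1 KO stumps, against 809, 698 and 438 CPM in the CTL stumps (log2 fold change -1.16, SE 0.21, adjusted p = 0.00906). The first 2 were higher and the last lower in every Nf1 KO stump, so macrophage genes did not move as 1 group. A group of 12 genes typical of resting microglia, chosen after their values were seen, held 5 rises and no fall. In it Fcrls, an Fc receptor-like gene, had 181, 243 and 183 CPM in the Nf1 KO stumps, against 90.5, 91.3 and 83.2 CPM in the CTL stumps (log2 fold change 1.19, SE 0.12, adjusted p = 0.000348). Tmem119 had 42.4, 42.04 and 41.2 CPM in the Nf1 KO stumps, against 21.1, 24.2 and 28.3 CPM in the CTL stumps (log2 fold change 0.77, SE 0.09, adjusted p = 0.000653), and Olfml3, a secreted glycoprotein, rose by 0.62 on the log2 scale. Conversely, of 15 genes of lipid-laden macrophages, also chosen afterwards, 3 fell and none rose, with Lpl, lipoprotein lipase, at 91.2, 96.3 and 82.3 CPM in the Nf1 KO stumps, against 138, 128 and 133 CPM in the CTL stumps (log2 fold change -0.56, SE 0.09, adjusted p = 0.00548). Lpl is also a gene of fat cells, and it was the 1 call among 14 adipocyte genes, all of which had a negative log2 fold change (median -0.39). The part of fat cell content in its fall was not tested.

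Dendritic cell genes rose in part: 4 of 20 rose and 1 fell (median 0.36). The count that rose was 2 without CTL distal stump 1 or 3 or without any 1 of the Nf1 KO stumps, and none fell with the Y-linked covariate or without any 1 library except CTL distal stump 3. Flt3, the growth factor receptor of dendritic cells, had 8.31, 8.35 and 8.46 CPM in the Nf1 KO stumps, against 3.13, 3.05 and 2.55 CPM in the CTL stumps (log2 fold change 1.53, SE 0.20, adjusted p = 0.00167). Zbtb46, a transcription factor of classical dendritic cells, had 17.9, 17.3 and 19.7 CPM in the Nf1 KO stumps, against 12.3, 12.1 and 13.7 CPM in the CTL stumps (log2 fold change 0.52, SE 0.09, adjusted p = 0.00794). Both were separate between the groups. Il7r, the interleukin-7 receptor of lymphocytes, was low and fell (log2 fold change -1.195, adjusted p = 0.00547). Sdc1, syndecan-1 of plasma cells and epithelia, rose by 0.796 (adjusted p = 0.00127), the 1 call among 8 B and plasma cell markers. When all 12 libraries were fitted, none of 12 neutrophil markers, of 10 mast cell markers or of 20 interferon-stimulated genes was called by edgeR, DESeq2 or limma-voom, with 0, 1 and 3 at an unadjusted p under 0.05 by edgeR. When only the distal libraries were fitted, edgeR called 1 neutrophil marker higher and 1 interferon-stimulated gene lower. The neutrophil sum was highest in Nf1 KO distal stump 1, at 606, 262 and 249 CPM in the Nf1 KO stumps, against 291, 254 and 184 CPM in the CTL stumps.

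Of 36 chemokines and their receptors 4 rose and 4 fell. Some calls were lost when 1 library was left out: 2 rose without CTL distal stump 1 or 3 or Nf1 KO distal stump 2 or 3, and 1 or 2 fell without any 1 library except Nf1 KO distal stump 1, and 2 with the Y-linked covariate. Cxcl14, a chemokine made by nerve fibroblasts and tumour stroma, had 139.8, 144 and 173 CPM in the Nf1 KO stumps, against 66.9, 66.01 and 57.4 CPM in the CTL stumps (log2 fold change 1.26, SE 0.10, adjusted p = 9.01e-05). Every Nf1 KO stump was above every CTL stump. Cxcl12, which binds CXCR4, had 50.5, 36.7 and 37.1 CPM in the Nf1 KO stumps, against 75.1, 61.2 and 64.9 CPM in the CTL stumps (log2 fold change -0.69, SE 0.14, adjusted p = 0.0144), with an adjusted p of 0.0540 without CTL distal stump 1, 0.0596 without Nf1 KO distal stump 2 and 0.0585 without Nf1 KO distal stump 3. Among 32 cytokines and receptors, Il33, an alarmin, rose by 0.44 (adjusted p = 0.00234) and Il34, which acts through the CSF1 receptor, fell by 0.41 (adjusted p = 0.00975), and these 2 kept their call throughout. In all 2 of the 32 rose and 2 fell, beside 4.45% rising and 3.69% falling over all tested genes. Of the list 1 rose without CTL distal stump 2 or 3 or Nf1 KO distal stump 2 or 3, and 1 fell without Nf1 KO distal stump 2, without CTL distal stump 1 or 2 or with the Y-linked covariate.

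Cell cycle genes were slightly higher, and few were called. All 24 proliferation genes had a positive log2 fold change (median 0.29), but only 3 rose. The count was 6 without CTL distal stump 1 and 0 without CTL distal stump 3, Nf1 KO distal stump 2 or Nf1 KO distal stump 3. The 24 genes summed to 764, 805 and 794 CPM in the Nf1 KO stumps, against 705, 686 and 599 CPM in the CTL stumps. Their sums did not overlap. Of 18 cell cycle inhibitors and D cyclins 4 rose and 1 fell, with no fall left without CTL distal stump 1 or 3 or Nf1 KO distal stump 2 or 3, and 2 rises kept their call throughout, those 2 being the rises left with the Y-linked covariate. Cdkn2a, the locus of the senescence-linked proteins p16 and p19ARF, had 30.4, 41.8 and 48.7 CPM in the Nf1 KO stumps, against 21.4, 20.1 and 19.4 CPM in the CTL stumps (log2 fold change 0.99, SE 0.16, adjusted p = 0.0049). Ccnd2, a D cyclin, had 58.8, 59.4 and 61.7 CPM in the Nf1 KO stumps, against 45.01, 42.3 and 41.2 CPM in the CTL stumps (log2 fold change 0.48, SE 0.08, adjusted p = 0.00485).

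Potassium channels of axons and glia were divided, with 5 of 25 falling and 2 rising. The count that fell was 3 without Nf1 KO distal stump 3 or any 1 CTL stump, and 1 rose without Nf1 KO distal stump 3 or with the Y-linked covariate. Kcna2, a delayed rectifier of the axon beside the node, had 29.2, 31.6 and 30.9 CPM in the Nf1 KO stumps, against 46.6, 46.2 and 47.6 CPM in the CTL stumps (log2 fold change -0.61, SE 0.09, adjusted p = 0.00238). Kcnj10, a glial inward rectifier, had 21.1, 23.7 and 23.8 CPM in the Nf1 KO stumps, against 17.2, 14.6 and 17.5 CPM in the CTL stumps (log2 fold change 0.47, SE 0.09, adjusted p = 0.00837). Among 20 cadherins and protocadherins, Cdh10 had 19.1, 21.95 and 16.7 CPM in the Nf1 KO stumps, against 9.54, 7.6003 and 8.43 CPM in the CTL stumps (log2 fold change 1.18, SE 0.16, adjusted p = 0.00193) and Cdh11, the mesenchymal cadherin, rose by 0.44 on the log2 scale. The other 4 calls of that list were lost in some analyses. Of 9 pigment cell genes, Mitf, the master factor of melanocytes, also present in other cells, had 14.3, 14.4 and 14.6 CPM in the Nf1 KO stumps, against 22.02, 18.5 and 18.6 CPM in the CTL stumps (log2 fold change -0.45, SE 0.07, adjusted p = 0.00437). Of 30 measured genes of the HOX clusters, 8 of red blood cells, 10 of neurons and 13 of mitochondrial DNA, edgeR, DESeq2 and limma-voom called none, with 5, 3, 4 and 0 genes at an unadjusted p under 0.05 by edgeR, although 1 HOX gene fell without CTL distal stump 1. None of 20 muscle genes was called by edgeR or limma-voom and 1 by DESeq2, with 2 at an unadjusted p under 0.05, and their median log2 fold change was 1.47.

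The same genotypes were compared in the bridge, and the test of the difference between regions (the interaction) called no gene by edgeR, although 2534 genes had an unadjusted p under 0.05 and the smallest adjusted p was 0.0873. DESeq2 called 426 (2.22% of the genes tested) and limma-voom none. In the bridge itself 7.81% of genes rose and 6.76% fell. Of the genes called in the distal stump 56.5% were called in the bridge as well, and of those called in the bridge 31.6% in the distal stump. Of these shared genes 878 changed in the same direction and 5 in opposite ones. By edgeR, a gene called in 1 region only is not shown to differ between regions. With the replicate number within a genotype as a block over both regions, edgeR and limma-voom also called none (2226 and 2379 genes at an unadjusted p under 0.05).

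Values of genes with small interaction p are given side by side as a description. The 7 genes of this paragraph were among those that DESeq2 called. Tgfbi had an interaction p of 1.29e-05 before adjustment, with a log2 fold change of 1.25 in the distal stump and 0.41 in the bridge. Its mean was 894 ± 91.3 CPM in Nf1 KO and 376 ± 15.8 CPM in CTL stumps, and 634 ± 10.3 CPM in Nf1 KO and 478 ± 28.97 CPM in CTL bridges (SD, n = 3 each). Slit2 had -0.897 in the distal stump and -0.29 in the bridge (unadjusted p = 1.93e-05). Both genes had the same sign in both regions and the larger value in the distal stump. Itga10 had 1.57 and 0.39 (unadjusted p = 2.35e-05). Of genes chosen here after their values were seen, Sox8, a transcription factor related to Sox10, had 31.9, 35.3 and 37.01 CPM in the Nf1 KO stumps, against 11.7, 12.4 and 13.1 CPM in the CTL stumps (log2 fold change 1.49, SE 0.11, adjusted p = 7.33e-05), and its bridge log2 fold change was 0.47. Ahr, the aryl hydrocarbon receptor, had 29.7, 31.02 and 29.3 CPM in the Nf1 KO stumps, against 49.7, 56.2 and 49.3 CPM in the CTL stumps (log2 fold change -0.78, SE 0.08, adjusted p = 0.000348), with -0.05 in the bridge. Ndufa6, a subunit of respiratory complex I, rose by 0.34 in the distal stump and had -0.21 in the bridge. Inmt went the other way, with a larger fall in the bridge (-2.55) than in the distal stump (-1.400).

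In the bridge 23 of the 24 proliferation genes rose with a median log2 fold change of 0.85, against 3 and 0.29 in the distal stump, and 21 of the 24 had an unadjusted interaction p under 0.05. None of the 24 passed adjustment by edgeR or limma-voom, and 10 did by DESeq2. For Corin the log2 fold change was 3.24 in the distal stump and 2.21 in the bridge, for Gcg 2.41 and 1.29, for Epyc 2.34 and 1.09, and for Inhba 1.901 and 0.85. For Prkg2 it was 3.03 and 3.17. None of these 5 differences passed adjustment by edgeR (adjusted p = 0.136, 0.139, 0.136, 0.147 and 0.804 in the order given), whereas DESeq2 called the first 4 (adjusted p = 0.00436, 0.00495, 0.000599 and 0.0166) and not that of Prkg2 (adjusted p = 0.871).

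**Figure D5:**
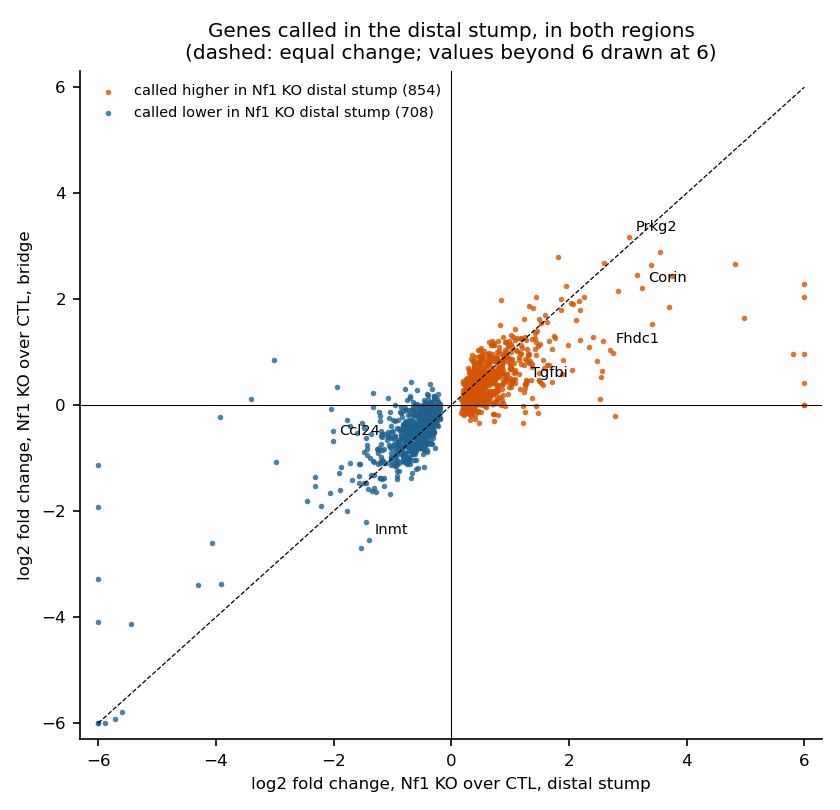
Log2 fold change of Nf1 KO over CTL in the distal stump (horizontal axis) and in the bridge (vertical axis) for the genes called in the distal stump, 1 point per gene, with changes beyond 6 drawn at 6 and a dashed line where both are equal. Most points lie in the quadrants where both regions changed the same way.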

How the data were processed

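Total RNA of pooled sciatic nerve fragments was depleted of ribosomal RNA and made into libraries with a directional kit and 15 PCR cycles, per the labels' protocols. Per the submitters' processing notes, the tools included CASAVA 1.8.2, cutadapt 1.2.1 and DESeq2, without a version for the last, and the build was mm10. The sources used here do not name the aligner or the counting step. The authors deposited 1 table of 30452 genes and 12 libraries, read here as estimated counts that are not scaled to depth: for 227 genes of at most 120 bases the smallest value above 0 is 19. The deposited values are whole numbers, so edgeR and DESeq2 were given the same values. Levels of short genes carry that caution, and 6 of the calls are of genes under 300 bases.

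Groups were taken from the labels. In R 4.3.3, edgeR 4.0.16 fitted 1 model with a coefficient for each of 4 groups (genotype by region) to the 12 libraries (filterByExpr, TMM factors, quasi-likelihood F test), and p-values were adjusted by Benjamini and Hochberg over the 19189 genes tested and called at 0.05. The interaction was tested in the same fit. DESeq2 1.42.0 and voom of limma 3.58.1 were other tests. Printed CPM are scaled by the TMM factors, and SD is over 3 libraries. Symbols came from the table and coordinates from GENCODE M21 (GRCm38, the assembly of mm10), with 30123 IDs matched. For 131 tested genes the counts are identical to another gene's. The fit was tested on simulated counts for this comparison with 18879 genes: it recovered 8.96, 58.2 and 84.8% of genes changed by log2 0.5, 1 and 2, with 3 false calls among 104. Only 67, 67 and 66 genes were changed, and the simulated spread followed the trend with level, not each gene's own spread.

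Members, gene lists (47 with 912 genes, and 7 added afterwards) and tests were chosen with earlier results of these data known. Named were Nf1, the 20 largest rises and falls among called genes with mean log2 CPM of at least 1, a full symbol and groups that did not overlap, up to 4 called members of smallest p of each list, and the most abundant markers of other tissues. Called genes named beside these (Ahr, Bgn, Col12a1, Col1a1, Col4a1, Fn1, Mmp14, Ndufa6, Pde3a, Sema6d, Sox8, Vcan and the groups said to be added afterwards) were chosen after their values were seen. Short receptor and histone genes that the rule names are not described, and a few other genes are not reported here.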

Additional observations from a re-analysis of the deposited data

How the results depend on the processing

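The number of genes called was 1562 in the reported fit and between 1069 and 2267 under other scale factors, filters, DESeq2, limma-voom, the Y-linked covariate (1069) or without Gm15662. It was 889 when only the 6 distal libraries were fitted. It ran from 880 to 1302 when 1 distal library was left out, with 1302, 880 and 913 without Nf1 KO distal stump 1, 2 and 3 and 957, 1089 and 900 without CTL distal stump 1, 2 and 3. A test against a change of log2 0.5, in place of 0, called 120. Nf1 kept its fall in every fit except that last test, where its log2 fold change of -0.60 did not pass. Without 1 library its value ran from -0.68 to -0.54. The interaction called 0 genes in every edgeR and limma-voom fit of both regions, unlike DESeq2, which called 426. Nf1 KO and CTL distal stumps with the same replicate number did not deviate together (correlations of -0.064 to -0.00997, against -0.0481 to 0.096 for other pairs). Stumps and bridges of 1 genotype with the same number correlated by 0.034 to 0.139 in Nf1 KO (-0.103 to 0.0355 for other numbers) and by 0.00682 to 0.0298 in CTL (-0.0447 to 0.0163), and Y-linked sums had the same order by number in both regions of each genotype. Not every pair passed 0.1, so the numbers were not taken as pairs. A block of that kind, added after the data were seen, called 1670 genes in the distal stump by limma-voom (1671 without it) and 0 for the interaction by limma-voom or edgeR. With the replicate block 1284 genes were called, 1201 of them among the 1562. Of 2567 values of named genes under the alternatives, 2238 kept their direction and call, 328 lost the call, 1 gained it and none changed sign. Of 918 list counts and medians, 176 moved beyond 1.5 times or the set limit. The median of all genes moved by at most 0.019 log2 units under any scaling or left-out library. In the simulated counts changes near log2 0.5 were mostly missed. That share does not carry over to these data, since the simulation gave 104 calls, against 1562 here. With 3 pools a group, the absence of a call at low levels is not evidence that a gene stayed the same.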

Other observations

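Genes of retinoid metabolism, a group of 18 measured genes chosen after its values were seen, held calls in both directions. Aldh1a1, which makes retinoic acid from retinal, had 15.2, 15.1 and 12.5 CPM in the Nf1 KO stumps, against 28.6, 31.9 and 36.03 CPM in the CTL stumps (log2 fold change -1.18, SE 0.12, adjusted p = 0.000377). The groups were far apart. Adh7, an alcohol dehydrogenase that acts on retinol, was low and had 1.41, 1.04 and 1.12 CPM in the Nf1 KO stumps, against 2.29, 2.59 and 2.98 CPM in the CTL stumps (log2 fold change -1.14, SE 0.17, adjusted p = 0.00382). In contrast, Rdh10, which oxidises retinol to retinal, had 37.9, 36.1 and 34.5 CPM in the Nf1 KO stumps, against 24.6, 21.8 and 21.2 CPM in the CTL stumps (log2 fold change 0.68, SE 0.09, adjusted p = 0.00188). In all 2 of the 18 rose and 5 fell, with 3 falling without Nf1 KO distal stump 2.

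Genes of endothelin and angiotensin signalling, 12 measured and also chosen afterwards, gave 4 falls and 1 rise, with 2 rises without CTL distal stump 1. Ace, which makes angiotensin II, had 32.8, 33.6 and 25.3 CPM in the Nf1 KO stumps, against 50.2, 45.6 and 47.7 CPM in the CTL stumps (log2 fold change -0.64, SE 0.11, adjusted p = 0.00685). Agtr1a, the main receptor of that peptide, had 9.49, 7.75 and 8.14 CPM in the Nf1 KO stumps, against 17.8, 13.8 and 15.8 CPM in the CTL stumps (log2 fold change -0.902, SE 0.13, adjusted p = 0.00234). Edn3, an endothelin that acts on cells of the neural crest, was low and had 0.807, 0.742 and 0.972 CPM in the Nf1 KO stumps, against 2.096, 2.19 and 2.24 CPM in the CTL stumps (log2 fold change -1.37, SE 0.18, adjusted p = 0.00178), whereas the endothelin receptor gene Ednra had 18.5, 15.7 and 17.9 CPM in the Nf1 KO stumps, against 7.64, 9.29 and 9.64 CPM in the CTL stumps (log2 fold change 0.97, SE 0.10, adjusted p = 0.000487). Every Nf1 KO stump was on 1 side of every CTL stump for each of these genes. In the hedgehog pathway, of 14 measured genes chosen afterwards 1 rose and 3 fell, with 2 rising without Nf1 KO distal stump 2. Ptch1, receptor and target of hedgehog signals, had 78.7, 72.5 and 67.5 CPM in the Nf1 KO stumps, against 98.3, 105 and 101 CPM in the CTL stumps (log2 fold change -0.48, SE 0.09, adjusted p = 0.011), and Gas1, a co-receptor, had 22.7, 26.8 and 29.02 CPM in the Nf1 KO stumps, against 37.1, 38.002 and 48.6 CPM in the CTL stumps (log2 fold change -0.66, SE 0.12, adjusted p = 0.0106).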
